A study of Homo sapiens with 9 samples.

Results

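The response common to silencing of TRIM28 and silencing of PARP1 was described in 786-O cells, an established human line of clear cell kidney cancer without working VHL. Polyadenylated RNA was sequenced from 9 libraries, and all of them enter here: 3 control libraries, 3 TRIM28 knockdown libraries and 3 PARP1 knockdown libraries, so 6 knockdown libraries in all stood against 3 controls. The labels disagree on the reagents, which are siRNA in titles and treatment and shRNA in the description. The sample labels give the controls a negative control reagent by transfection, while the design text calls them parental, so whether they received a matching reagent is uncertain, and no drug, time after silencing or clone is given. A response to the reagent or to its delivery, a response to loss of either protein and a difference in how the control libraries were made cannot be told apart in this design. Nothing in the labels says that the 3 libraries of a group came from separate cultures, so the spread behind each p-value is that between these libraries and may be technical.

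KRAB zinc finger proteins recruit TRIM28, a corepressor, to chromatin, and PARP1 is a nuclear enzyme that attaches poly(ADP-ribose) to proteins at DNA breaks. Cells that take up foreign RNA can sense it through RIG-I-like receptors, which signal through MAVS to the kinases and factors that switch on interferon beta. Secreted interferon acts through its receptor, the kinases JAK1 and TYK2 and a transcription factor complex on promoters that hold an interferon-stimulated response element, and the induced proteins restrict viruses. Genes of this pathway, of the RNA interference machinery and of the main stress responses are therefore read here beside the ribosomal, respiratory and RNA-processing genes.

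Each knockdown was checked on its target. TRIM28 stood at 316, 341 and 381 CPM (a gene's counts relative to the TMM-scaled library total) in control, at 44, 54.7 and 58 CPM in TRIM28 knockdown, and at 440, 421 and 428 CPM in PARP1 knockdown. PARP1 stood at 178, 200 and 153 CPM in control, at 6.82, 4.48 and 5.24 CPM in PARP1 knockdown, and at 94.4, 93.3 and 93.6 CPM in TRIM28 knockdown. Each target was thus lowest in the libraries labelled with it, and PARP1 was below all controls in all 6 knockdown libraries.

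The 3 groups also differed in make-up. Totals ran from 18042542 to 20224374 counts per library in control. They ran from 12840619 to 16346186 in TRIM28 knockdown and from 11963110 to 15629533 in PARP1 knockdown, so every knockdown library was shallower than every control. The number of genes with a count was not adjusted for depth, and the part of depth in it was not tested. Ribosomal protein genes took 11.6% ± 0.837 of all counts in the controls, 14.6% ± 0.902 with TRIM28 silenced and 17.3% ± 2.2 with PARP1 silenced (SD, n = 3). The share of the 100 highest genes was 27% ± 0.956, 30.8% ± 0.697 and 34.3% ± 2.7, and genes with a count numbered 20089 ± 29.9, 19283 ± 358 and 18531 ± 596 (SD, n = 3). The slope of a gene's log2 level, taken against its mean over all libraries, on the log2 of its summed exon length was 0.15 ± 0.0688 in the controls, -0.0119 ± 0.0118 with TRIM28 silenced and -0.138 ± 0.0368 with PARP1 silenced (SD, n = 3). Each of these 4 measures differed between the 6 knockdown libraries and the 3 controls (two-sided exact permutation test over 84 arrangements, adjusted p = 0.0417 for each over 7 measures, 0.0119 being the smallest unadjusted p possible). The same slope on GC content, with an exact adjusted p of 0.05, did not pass. Transcripts of the ribosomal DNA region, at 0.312% ± 0.102, 0.787% ± 0.0591 and 1.89% ± 1.21 of the counts (SD, n = 3), had an exact adjusted p of 0.111, and the mitochondrial genome one of 0.81. Control replicate 3, with a length slope of 0.0725, lay nearest to the knockdowns. These measures follow the same order of groups as many results below, and their part in those results was not tested.

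**Figure D1:**
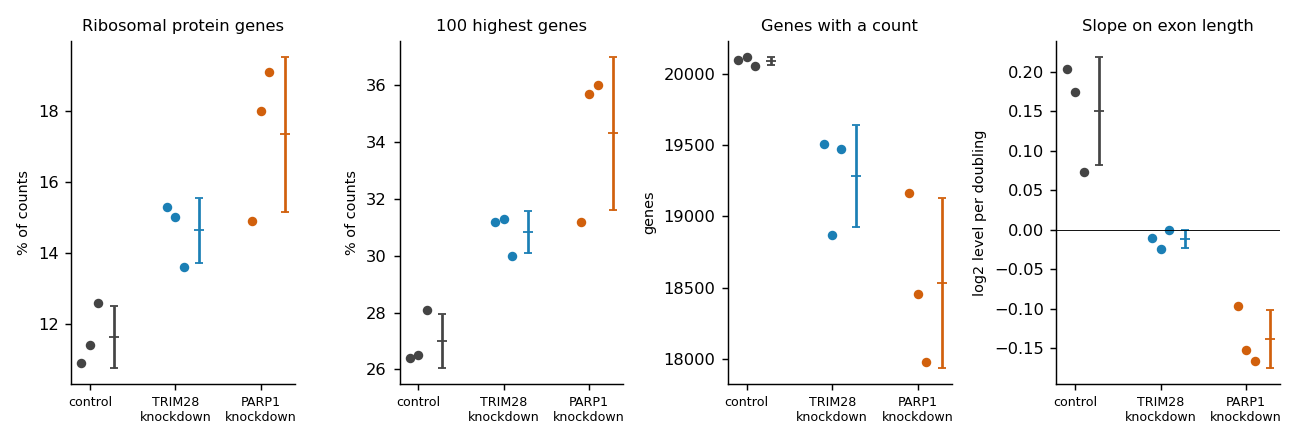
Library make-up in each group. Points are the 3 libraries of a group, and the bar beside them is the mean with its SD; the vertical axes do not start at 0. From control to TRIM28 knockdown to PARP1 knockdown the mean ribosomal protein share went from 11.6% to 14.6% to 17.3%, and the mean slope on exon length from 0.15 to -0.0119 to -0.138 log2 per doubling.

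In the pooled contrast, which weighted each knockdown equally, 7443 of 13562 tested genes (54.9%) passed at an adjusted p below 0.05 (edgeR quasi-likelihood test, Benjamini-Hochberg adjustment). Of the tested genes 24.7%, or 3344, were higher in the knockdowns and 30.2%, or 4099, were lower. The changes of at least 2-fold were mostly falls, 1669 against 182 rises. A gene is said below to have risen or fallen in both knockdowns when the pooled contrast and each knockdown's own contrast with control passed in 1 direction. That held for 3641 genes (26.8%), 1342 higher (9.9%) and 2299 lower (17%). Both knockdowns are set against the same 3 controls, so this count is a description and each knockdown's value is given beside it. At least 2-fold in each knockdown, 37 rose and 694 fell. In bulk RNA a change in the RNA per cell and a change in the mixture of cells cannot be told apart. Without control replicate 1 the count of genes changed in both was 1501, without control replicate 2 it was 1816 and without TRIM28 knockdown replicate 2 it was 2075. Without control replicate 3 it was 4730.

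Changes were mostly larger in PARP1 knockdown. The median log2 change of the genes higher in both was 0.48 with TRIM28 silenced and 0.90 with PARP1 silenced, and those lower in both had medians of -0.86 and -1.35. Between the knockdowns 3407 genes (25.1%) differed. Among the 3641 genes changed in both, 1638 differed between the knockdowns, and in 1637 of these the change was larger in PARP1 knockdown. Control replicate 3 was the lowest control for 2173 of the 2299 genes that fell and the highest for 1235 of the 1342 that rose, so it lay on the knockdown side of the other controls for most of them.

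The strongest rises common to both knockdowns were led by genes of the interferon response. By the naming rule, which ranked genes by the smaller of their changes in the knockdowns, 12 rises were taken, and IFITM1, IFI27, RTP4, OASL, OAS1 and IFNB1 were among them. IFITM1, an interferon-induced membrane protein that blocks virus entry, stood at 9, 13 and 13.9 CPM in control, at 29.6, 33.1 and 29.8 CPM in TRIM28 knockdown and at 29.9, 46.5 and 38.7 CPM in PARP1 knockdown. Every knockdown library was above every control, which the naming rule required of these 12 and 17.9% of the tested genes met. Its log2 fold change was 1.36 ± 0.18 in TRIM28 knockdown (SE, n = 3 per group, adjusted p = 5.55e-06) and 1.68 ± 0.18 in PARP1 knockdown (adjusted p = 2.90e-08). Promoters of 4 of these genes are shown because they are where an interferon signal would be read. Each is the stretch from 130 bases before to 20 after the gene's start in RefSeq on GRCh38.p14, plus strand, and capitals mark the interferon-stimulated response element. The stretches are chr11:313910-314059 for IFITM1, chr14:94110606-94110755 for IFI27, chr3:187368255-187368404 for RTP4 and chr12:112906832-112906981 for OAS1.
IFITM1: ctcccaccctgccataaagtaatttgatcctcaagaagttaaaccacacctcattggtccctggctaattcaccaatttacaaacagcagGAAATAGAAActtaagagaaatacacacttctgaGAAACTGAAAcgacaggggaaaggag
IFI27: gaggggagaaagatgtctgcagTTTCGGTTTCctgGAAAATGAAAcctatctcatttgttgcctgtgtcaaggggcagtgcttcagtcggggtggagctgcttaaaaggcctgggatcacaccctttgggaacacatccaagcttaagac
RTP4: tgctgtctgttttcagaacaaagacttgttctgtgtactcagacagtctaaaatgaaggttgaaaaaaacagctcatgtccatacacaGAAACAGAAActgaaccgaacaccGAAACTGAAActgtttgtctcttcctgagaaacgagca
OAS1: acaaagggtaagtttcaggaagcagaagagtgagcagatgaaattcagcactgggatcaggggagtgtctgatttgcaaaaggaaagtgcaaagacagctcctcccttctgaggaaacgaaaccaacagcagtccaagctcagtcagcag
The element was searched on both strands as TTTCNNTTTC, where N is any base, in 300 bases around each start, from 250 before to 50 after. It was found in 286 of 10118 promoters of tested genes (2.83%) and in 25 of the 39 interferon-stimulated genes with an entry (64.1%). IFITM1, IFI27 and RTP4 each hold 2 matches, and the letters searched are not in the OAS1 window. Among the listed interferon-stimulated genes the element was in 9 of 12 that rose in both knockdowns, in 3 of 5 that fell in both and in 13 of 22 others, and the difference between these shares was not tested.

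IFI27, an interferon alpha-inducible gene, stood at 44.4, 50.3 and 52.7 CPM in control, at 122, 124 and 107 CPM in TRIM28 knockdown and at 121, 199 and 175 CPM in PARP1 knockdown. OASL, a relative of the 2'-5' oligoadenylate synthetases that binds RNA sensors, was the most counted of these genes and stood at 237, 243 and 256, at 496, 528 and 482, and at 610, 705 and 771 CPM in the same order of groups. Both genes were higher in PARP1 than in TRIM28 knockdown, with 95% intervals of the TRIM28 minus PARP1 log2 difference from -0.80 to -0.18 for IFI27 and from -0.73 to -0.21 for OASL. OAS1, which makes the messenger that activates RNase L, stood at 14.1, 15.9 and 13.8 CPM in control and between 27.9 and 39.5 CPM in the 6 knockdown libraries. RTP4, an interferon-induced receptor transporter, stood between 1.36 and 1.43 CPM in control and between 2.45 and 3.66 CPM in the knockdowns. For OAS1 and RTP4 the interval of the difference between the knockdowns included 0, from -0.54 to 0.05 and from -0.64 to 0.53.

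Of the 49 listed interferon-stimulated genes that were tested, 15 rose in both knockdowns (30.6%, against 9.9% of all genes) and 6 fell in both (12.2%, against 17%). The list was written with earlier results of these data known. Named after their values were seen, the other risers were ISG15, ISG20, IFI6, BST2, IFI35, IFITM2, IFITM3, UBE2L6, USP18 and TRIM21, with pooled log2 fold changes from 0.43 to 1.31. The 6 fallers, among them IFIT3, IFIT5, HERC6, PARP9 and DTX3L, had pooled log2 fold changes from -1.64 to -0.75. IFITM1, IFITM2 and IFITM3 are close relatives that can share reads. IFIT1 and MX2 passed in TRIM28 knockdown (0.54 and 0.74) and did not pass in PARP1 knockdown (0.28 and 0.05). The 95% interval of the difference between the knockdowns included 0 for IFIT1 (-0.04 to 0.56) and not for MX2 (0.25 to 1.13). MX1, OAS2, OAS3, RSAD2 and IFI44 did not pass in the pooled contrast, with log2 fold changes between -0.29 and -0.12. The list's median pooled log2 fold change was 0.18, and -0.05 when library totals replaced TMM factors, a scaling that moved the median of all genes by -0.24. The rising members were short, with a median summed exon length of 1958 bases and a GC content of 53%, against 5773 bases and 43.9% for the falling ones and 5054 bases and 48.6% for all tested genes. After each library's trends with length and GC content were removed, 14 members rose and 2 fell in both knockdowns, where 10.4% and 9.64% of all tested genes did. The falls numbered 3 when any of control replicates 1 and 2 and TRIM28 knockdown replicates 2 and 3 was omitted, and 10 without PARP1 knockdown replicate 1.

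Among ligands and RNA sensors, IFNB1 and DHX58 rose in both knockdowns. IFNB1, which encodes interferon beta, stood at 2.02, 1.16 and 1.8 CPM in control, at 3.74, 3.35 and 2.77 CPM in TRIM28 knockdown and at 4.37, 4.31 and 8.71 CPM in PARP1 knockdown. All 6 knockdown libraries were above all controls, which the naming rule required and 17.9% of the tested genes met. Its pooled log2 fold change was 1.38 ± 0.28 (SE, adjusted p = 0.000177). At these low levels the call in both knockdowns was lost without control replicate 2 or TRIM28 knockdown replicate 1 or 2. IFNL1, a lambda interferon, had a pooled log2 fold change of 0.69 that did not pass (adjusted p = 0.0582). DHX58, the RIG-I-like receptor LGP2, rose from 1.68, 1.5 and 2.07 CPM to between 3.19 and 4.57 CPM in the knockdowns, a call lost without control replicate 2. DDX58, which encodes RIG-I, was below the filter, with 0 to 7 counts per library.

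Several genes of sensing and signalling fell. ADAR, which edits double-stranded RNA, fell from 169, 166 and 126 CPM in control to 63.7, 67.3 and 70.6 CPM in TRIM28 knockdown and to 48.2, 39.3 and 34.9 CPM in PARP1 knockdown, a pooled log2 fold change of -1.55 ± 0.12 (SE, adjusted p = 2.31e-10). The receptor kinase JAK1 fell by 1.15 on the log2 scale in TRIM28 knockdown and by 1.74 in PARP1 knockdown. SAMHD1, a nucleotide hydrolase that limits viruses, fell by 0.79 and 1.60, and the partners PARP9 and DTX3L fell by 1.14 and 1.93 and by 1.13 and 1.58. JAK1, PARP9 and DTX3L each have a tested neighbour overlapping them antisense, and the strand setting of the counting is not given. In all, 2 of 21 tested sensing and ligand genes rose (9.52%, against 9.9% of all genes) and 6 fell (28.6%, against 17%) in both knockdowns. The rises numbered 5 without control replicate 3, 4 without PARP1 knockdown replicate 3, 3 without its replicate 1 and 1 without TRIM28 knockdown replicate 1 or 2, and without control replicate 2, 0 rose by edgeR (with all libraries 5 had unadjusted p below 0.05 in each contrast). The falling 6 had a median exon length of 11403 bases. With length and GC trends removed, ADAR, JAK1 and DTX3L kept their calls in both knockdowns, with pooled log2 fold changes of -0.99, -0.71 and -0.88. PARP9 (-0.84) and SAMHD1 (-0.48) passed in the pooled contrast there but not in TRIM28 knockdown, with adjusted p of 0.054 and 0.196.

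**Figure D2:**
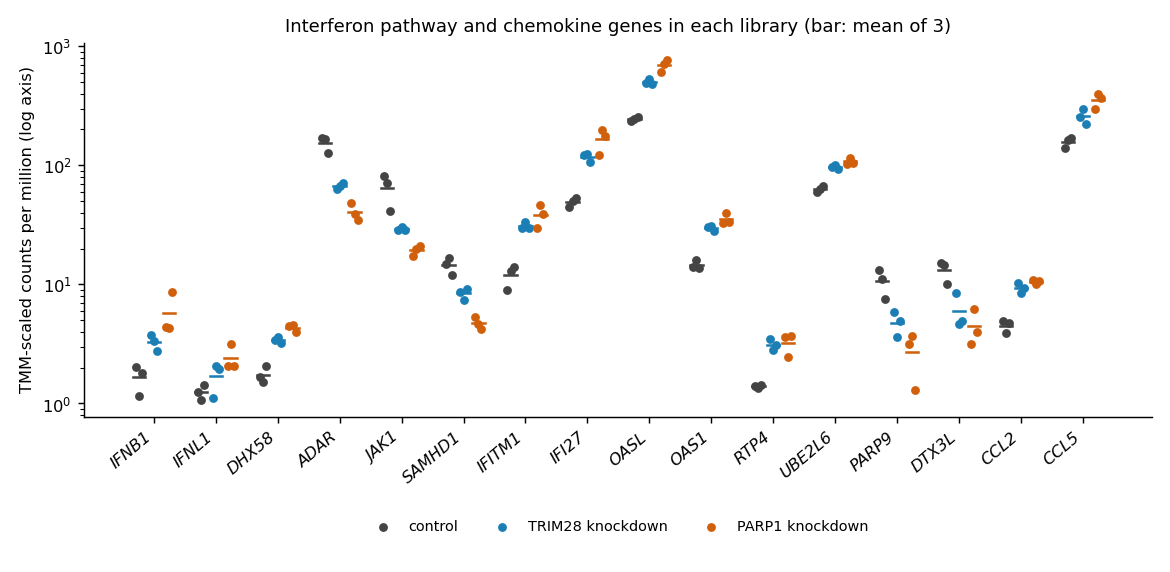
Interferon pathway and chemokine genes in each library, as TMM-scaled CPM on a log axis, with a bar at the mean of 3 libraries. IFITM1, IFI27, OASL, OAS1, RTP4, UBE2L6, CCL2 and CCL5 were higher in all 6 knockdown libraries than in all controls, while ADAR, JAK1, SAMHD1, PARP9 and DTX3L were lower in them. Over all tested genes 17.9% were higher and 22.5% lower in this way, and the naming rule required it of some of the genes shown.

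Inflammatory genes gave a narrower picture. CCL2, a chemokine for monocytes, stood at 4.91, 3.87 and 4.7 CPM in control, at 10.3, 8.53 and 9.34 CPM in TRIM28 knockdown and at 10.8, 10.1 and 10.7 CPM in PARP1 knockdown. The 95% interval of the difference between the knockdowns ran from -0.56 to 0.23 (log2). CCL5, a chemokine for T cells that interferon factors also induce, rose from 140, 164 and 169 CPM to between 221 and 298 CPM in TRIM28 knockdown and between 296 and 399 CPM in PARP1 knockdown. NFKBIE, an inhibitor of NF-kB, met the rule as the only other riser, but lost it without any of 6 single libraries. TNFAIP3, which ends NF-kB signalling, NFKB1, a subunit of it, and the adhesion gene VCAM1 fell in both, with pooled log2 fold changes of -1.14, -1.30 and -1.31. NFKB1 lost its call without control replicate 1 and with length trends removed, alone or with GC. Of 29 tested members 3 rose and 3 fell in both knockdowns (10.3% each way), near or below the 9.9% and 17% of all tested genes. The rises numbered 6 without control replicate 3 and 5 without PARP1 knockdown replicate 1 or 3. IL6 (pooled log2 fold change 0.01), CXCL8 (-0.10) and CXCL1 (0.15), named after their values were seen, did not pass.

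The machinery of RNA interference was read because the labels name small or hairpin RNAs as reagents. Of 17 tested genes, 8 fell (47.1%, against 17% of all genes) and 2 rose (11.8%, against 9.9%) in both knockdowns. DROSHA, the nuclear RNase that cuts microRNA precursors, stood at 39.5, 47.9 and 25.7 CPM in control, at 18.7, 14.5 and 14.9 CPM in TRIM28 knockdown and at 9.94, 11.1 and 11.5 CPM in PARP1 knockdown. XPO5, which exports the hairpins, fell by 1.04 and 1.78 on the log2 scale, and AGO1, an Argonaute, had a pooled log2 fold change of -1.42. TARBP2, a partner of Dicer, rose by 0.64 and 1.36, and RAN, the small GTPase of nuclear transport, by 0.38 and 0.56, RAN losing its call without any of 5 single libraries. AGO2, the slicing Argonaute, passed in the pooled contrast (-0.39, adjusted p = 0.00756) but not in both knockdowns, and DICER1 did not pass (-0.27, adjusted p = 0.356). These last values were chosen after they were seen. The 8 falling genes had a median exon length of 7602 bases. With length and GC trends removed 4 members fell and 3 rose in both, where 9.64% of all tested genes fell and 10.4% rose. The list's median pooled log2 fold change went from -0.75 to -0.27 there. When any of control replicates 1 and 2 and TRIM28 knockdown replicates 2 and 3 was omitted, 5 fell. XPO5 has an overlapping antisense neighbour among the tested genes.

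Several chaperone genes fell in both knockdowns. Of 24 tested genes of the integrated stress response, 25 of the unfolded protein response and 20 heat shock genes, 0 rose in both by edgeR, although 4, 3 and 2 had an unadjusted p below 0.05 in each contrast, and DESeq2 called 4, 2 and 1 and limma 0, 0 and 0. Without control replicate 3 the edgeR counts were 6, 4 and 2, and without PARP1 knockdown replicate 1 they were 4, 2 and 2. HSP90AB1, a cytosolic HSP90, stood at 2544, 2588 and 2026 CPM in control, at 1199, 1083 and 1116 CPM in TRIM28 knockdown and at 492, 451 and 318 CPM in PARP1 knockdown. HSPA5, the main chaperone of the endoplasmic reticulum, fell from 482, 469 and 407 CPM to between 224 and 259 CPM and between 99 and 178 CPM. CANX, a lectin chaperone there, and the mitochondrial chaperones HSPD1 and HSPA9 had pooled log2 fold changes of -1.67, -1.56 and -1.54. In all, 9 of the 25 (36%) and 8 of the 20 (40%) fell in both, against 17% of all tested genes, and the other members did not meet the rule. The 9 had a median exon length of 11774 bases. With length and GC trends removed, 4 of the 25 fell and 5 rose, and 6 of the 20 fell and 0 rose. Of the 24 integrated stress response genes 3 fell and 1 rose there, where 9.64% of all tested genes fell and 10.4% rose.

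Genes of p53 and of cell death held both directions. Of 23 tested p53 targets, 2 rose and 2 fell in both knockdowns (8.7% each way), below the shares over all tested genes, 9.9% and 17%. BAX, which permeabilises mitochondria, stood at 57.3, 62.3 and 72.9 CPM in control and between 81.2 and 109 CPM in the knockdowns, and its pooled log2 fold change of 0.53 became -0.01 with length and GC trends removed. PMAIP1, which encodes NOXA, had values of 0.43 and 0.45 in TRIM28 and PARP1 knockdown and 0.36 in the pooled contrast with both trends removed. CDKN1A, the p53-induced cell cycle inhibitor, passed in the pooled contrast (0.66) but not in TRIM28 knockdown, and MDM2 did not pass (0.07, adjusted p = 0.838). Of 20 apoptosis regulators, 6 rose (30%) and 3 fell (15%) in both, against 9.9% and 17% of all tested genes. Among them were the risers BID (0.80), BAK1 (0.73) and BAD (0.82), which promote death, and the faller MCL1 (-1.14), which prevents it. The other direction also occurred: of 12 pro-apoptotic members 4 rose and 1 fell, and of 8 anti-apoptotic members 2 rose and 2 fell. Without control replicates 1 and 2 in turn, 0 and 1 of these 20 rose in both by edgeR (6 at an unadjusted p with all libraries), and without TRIM28 knockdown replicate 2, 1 did. The p53 rises numbered 0 without control replicate 2, with library totals or by limma, and 1 without control replicate 1 or TRIM28 knockdown replicate 2 or 3. They numbered 7 without control replicate 3 or PARP1 knockdown replicate 1, and 6 had unadjusted p below 0.05 throughout.

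Genes of the ribosome and of the respiratory chain rose together. Of 79 tested cytosolic ribosomal protein genes, 59 rose in both knockdowns (74.7%, against 9.9% of all tested genes). By edgeR, at an unadjusted p, by DESeq2 or by limma, 0 fell. All 6 knockdown libraries lay above all controls for 66 of the 79, and for 17.9% of all tested genes. Over the list the median log2 change was 0.48 with TRIM28 silenced and 0.94 with PARP1 silenced. RPL18, of the large subunit, stood at 920, 1005 and 1188 CPM in control, between 1625 and 1659 CPM in TRIM28 knockdown and between 1825 and 2764 CPM in PARP1 knockdown. RPS2, of the small subunit, stood at 5054, 5487 and 6409 CPM in control, at 8432, 8859 and 8596 CPM in TRIM28 knockdown and at 9793, 13245 and 15169 CPM in PARP1 knockdown. Many such genes have pseudogenes that can share their reads. Without control replicate 1 the count that rose was 20, without control replicate 2 it was 32, and without TRIM28 knockdown replicates 1 and 2 in turn it was 30 and 31. With length and GC trends removed it was 49, 37 when scaled by library totals, and by limma on FPKM values 34.

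Of 69 nuclear genes of the respiratory chain, 47 rose in both knockdowns (68.1%) and 1 fell (1.45%), against 9.9% and 17% of all tested genes. NDUFB8, a subunit of complex I, stood at 60.6, 72.3 and 81.9 CPM in control, between 117 and 124 CPM in TRIM28 knockdown and between 125 and 186 CPM in PARP1 knockdown. ATP5MG, a subunit of the ATP synthase, had a pooled log2 fold change of 0.91. NDUFS1, the largest subunit of complex I and the only member that fell, had a summed exon length of 12174 bases and fell from 70.5, 78.5 and 60.4 CPM to between 39.9 and 41.1 CPM and between 14.1 and 25.7 CPM. NDUFB8 overlaps tested genes on both strands. Of the 13 protein-coding genes of the mitochondrial genome 0 changed in both knockdowns by edgeR, DESeq2 or limma, and 1 was lower at an unadjusted p below 0.05 in each contrast. Without control replicate 1, 6 of the nuclear genes rose in both, and without control replicate 2 there were 14. Without TRIM28 knockdown replicates 1 and 2 in turn there were 23 and 19, and with length and GC trends removed there were 30. With library totals there were 17, and by limma 16.

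Small RNA host genes, with a median exon length of 5354 bases, were also among the rises. Of 20 small RNA host genes, 8 rose in both knockdowns (40%, against 9.9% of all tested genes). By edgeR, at an unadjusted p, by DESeq2 or by limma, 0 fell. GAS5, a host of small nucleolar RNAs whose spliced transcript is destroyed during translation, stood at 454, 458 and 550 CPM in control, at 745, 804 and 708 CPM in TRIM28 knockdown and at 827, 1005 and 1107 CPM in PARP1 knockdown. SNHG15 and SNHG8, of the same kind, had pooled log2 fold changes of 0.87 and 0.67. GAS5 overlaps 2 tested genes on the opposite strand. With length and GC trends removed 12 of the 20 rose in both, while without control replicate 1 or 2 there were 2, without TRIM28 knockdown replicates 1 and 2 in turn 3 and 4, and by limma 2. Of 26 tested histone genes, 22 were higher in the pooled contrast, a larger share than the 24.7% of all tested genes. In both knockdowns 3 rose (11.5%, near the 9.9% of all tested genes). Most histone messages lack the poly(A) tail that the libraries select. H2AJ, H2BC15 and H2BC21 were those 3, and their number was 0 without control replicate 1 and 9 without control replicate 3 or PARP1 knockdown replicate 1 or 3.

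**Figure D3:**
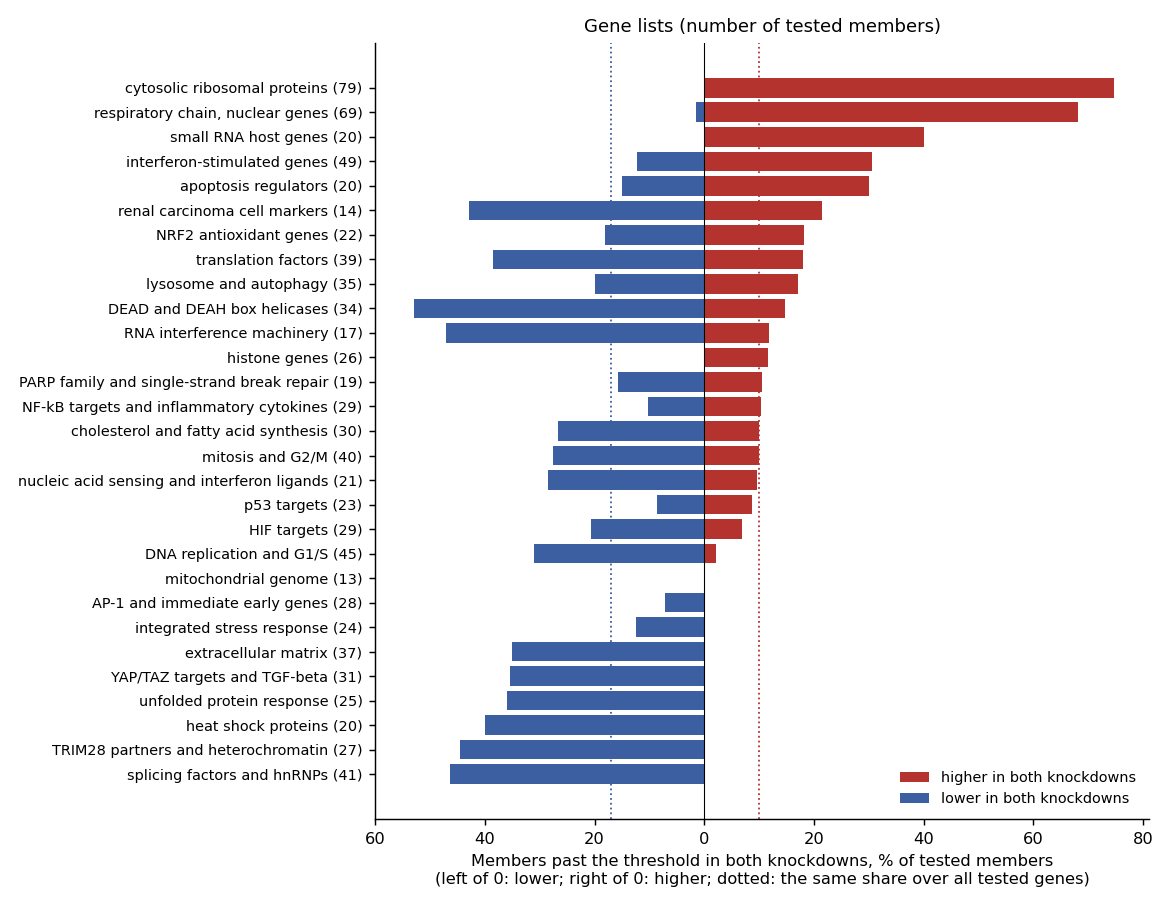
Members of each gene list that passed in both knockdowns, as a percent of tested members, for lists with at least 10 of them; bars to the left are falls and bars to the right are rises. Dotted lines mark the share over all tested genes, 17% lower and 9.9% higher. Ribosomal protein and respiratory chain genes had the highest shares of rises (74.7% and 68.1%), and the helicases the highest share of falls.

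The falls held the largest single changes. The naming rule took genes with every knockdown library below every control, so that this held for the 12 named falls follows from the rule. Over all tested genes it held for 22.5%. CMTM4, a MARVEL-domain membrane protein, stood at 22.9, 20 and 11.5 CPM in control, at 4.48, 5.18 and 5.73 CPM in TRIM28 knockdown and at 4.57, 2.54 and 3.17 CPM in PARP1 knockdown. CHRDL1, which binds and blocks bone morphogenetic proteins outside the cell, stood at 59, 60.1 and 39.8, at 16.4, 13.7 and 17.1, and at 12.5, 13.6 and 13.1 CPM in the same order. The 95% interval of the difference between its falls ran from -0.08 to 0.63 (log2). DIAPH1, a formin that nucleates actin filaments, was lower again in PARP1 than in TRIM28 knockdown, at 144, 142 and 98.6 CPM in control, between 43.8 and 44.2 CPM in TRIM28 knockdown and between 16.9 and 24.7 CPM in PARP1 knockdown. SPTBN1, a spectrin of the membrane skeleton, stood at 243, 249 and 136 CPM in control and between 49.1 and 71.1 CPM in the knockdowns. TCF20, a transcriptional coregulator, MFAP1, a splicing factor, TEX2, a lipid transfer protein, SOCS7, a suppressor of cytokine signalling, WDR3, which acts in ribosome assembly, and CHSY1, a chondroitin synthase, had pooled log2 fold changes from -1.89 to -1.68. All 12 kept their calls in both knockdowns when any single library was left out, and also after removal of length and GC trends.

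**Figure D4:**
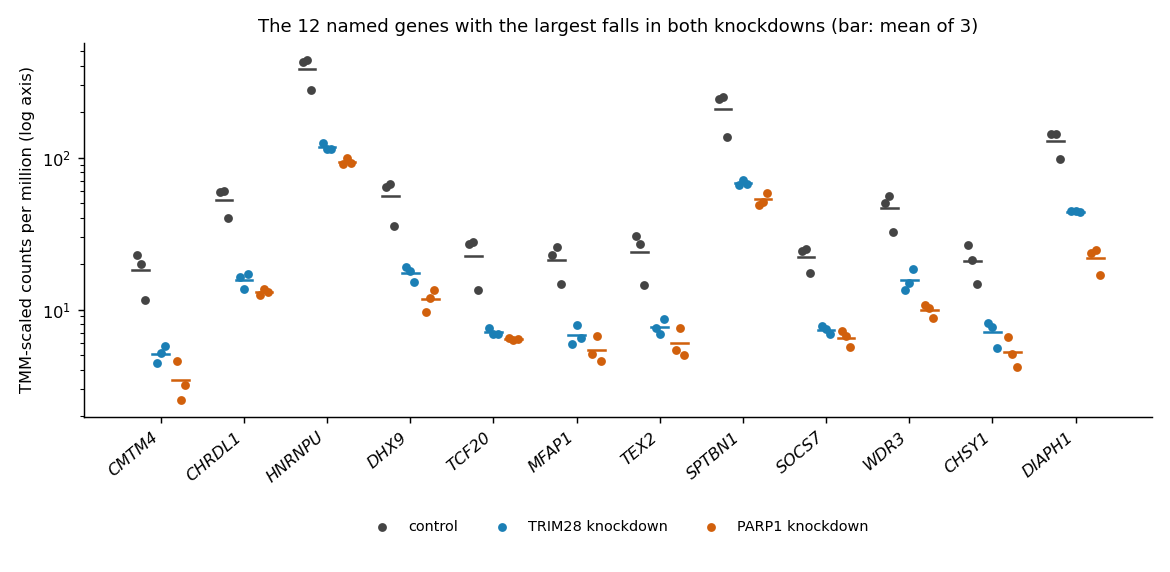
The 12 named genes with the largest falls in both knockdowns, as TMM-scaled CPM in each library on a log axis, with a bar at the mean of 3 libraries. In each gene the 6 knockdown libraries lay below the 3 controls, and control replicate 3 was the lowest control.

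RNA-processing genes were among these falls. Of 34 DEAD and DEAH box helicases, 18 fell and 5 rose in both knockdowns (52.9% and 14.7%, against 17% and 9.9% of all tested genes). DHX9, which unwinds RNA and DNA structures, stood at 64.2, 66.8 and 35.6 CPM in control, at 19.1, 17.8 and 15.2 CPM in TRIM28 knockdown and at 9.67, 12 and 13.4 CPM in PARP1 knockdown. DDX17, a coregulator and splicing helicase, and DHX33, which acts in ribosome assembly, had pooled log2 fold changes of -1.66 and -1.61. The 5 that rose, among them DDX49, DDX39A and DDX56, had a median exon length of 3861 bases and a GC content of 58.3%. The 18 that fell had 9026 bases and 43%. With length and GC trends removed the helicase counts were 11 falls and 2 rises, where 9.64% of all tested genes fell and 10.4% rose. Without control replicate 1 or 2 there was 1 rise.

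Of 41 splicing factors and hnRNPs, 19 fell in both knockdowns (46.3%, against 17% of all tested genes). Rises called by edgeR were 0, by DESeq2 1 and by limma 0, and 1 had unadjusted p below 0.05 throughout. HNRNPU, a nuclear scaffold RNA-binding protein, stood at 423, 441 and 280 CPM in control, between 114 and 124 CPM in TRIM28 knockdown and between 90.5 and 99.3 CPM in PARP1 knockdown, and it overlaps COX20 on the opposite strand. SNRNP200, the helicase that unwinds U4 from U6, fell from 501, 494 and 400 CPM to between 173 and 194 CPM and between 83.9 and 118 CPM. HNRNPA2B1 had a pooled log2 fold change of -1.59. With length and GC trends removed, 12 of the 41 fell and 6 rose in both, where 9.64% of all tested genes fell and 10.4% rose. Among 39 translation factors 15 fell (38.5%) and 7 rose (17.9%), against 17% and 9.9% of all tested genes. With length and GC trends removed 10 fell and 7 rose, and the list's median pooled log2 fold change went from -0.33 to -0.03. EIF4B, a cofactor of the cap-binding helicase, ETF1, the release factor, and EIF4G2 had pooled log2 fold changes of -1.63, -1.43 and -1.23, whereas the shorter EIF6, EEF1D and EIF3K had values of 0.82, 0.74 and 0.72. The rises numbered 3 without control replicate 1 or 2.

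Some matrix and signalling genes also fell. Of 37 tested matrix genes 13 (35.1%, against 17% of all genes) fell in both knockdowns while edgeR called 0 rises, DESeq2 1 and limma 0, and 1 had unadjusted p below 0.05 throughout. FN1, fibronectin, stood at 5136, 4789 and 3535 CPM in control, at 2000, 2062 and 2180 CPM in TRIM28 knockdown and at 1399, 1161 and 1163 CPM in PARP1 knockdown. COL6A3, a collagen VI chain, and LAMC1, a laminin chain, had pooled log2 fold changes of -1.62 and -1.55. The 13 had a median exon length of 14488 bases, and without control replicate 1 or 2, 9 fell. With the length trend removed 9 of the 37 fell, and the list's median pooled log2 fold change went from -0.48 to -0.04. With length and GC trends removed 9 fell and the median was -0.27. There 9.64% of all tested genes fell and 10.4% rose. Of 31 YAP/TAZ and TGF-beta genes 11 (35.5%) fell, with the receptor TGFBR2 at -1.31, the mediator SMAD4 at -1.44 and the transmembrane regulator CRIM1 at -1.29. The falls numbered 5 if control replicate 1, control replicate 2 or TRIM28 knockdown replicate 3 was omitted. With length and GC trends removed 8 of the 31 fell and 1 rose. Of 27 listed TRIM28 partners and heterochromatin genes 12 fell in both (44.4%, against 17% of all tested genes), and without control replicate 1 or 2, 7 fell. These 12 had a median exon length of 11864 bases. With length and GC trends removed 8 of the 27 fell and 1 rose, and their median pooled log2 fold change went from -0.54 to -0.17. CHD3, a remodeller of the NuRD complex, fell from 122, 135 and 92.8 CPM to between 46.4 and 53.3 CPM in TRIM28 knockdown and between 28.5 and 33.1 CPM in PARP1 knockdown. MORC2, an ATPase of the HUSH pathway, and the maintenance methyltransferase DNMT1 had pooled log2 fold changes of -1.74 and -1.22. Of 19 other PARP family and single-strand break repair genes 3 fell (15.8%) and 2 rose (10.5%), near the shares over all tested genes, 17% and 9.9%. The fallers were PARP2 (-1.28), PARP4 (-1.66) and TNKS (-1.10). The rises numbered 0 without control replicate 1 or 2 or any TRIM28 knockdown replicate, with library totals or by limma, and 3 had unadjusted p below 0.05 throughout.

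Cell cycle genes held both directions. Of 45 genes of DNA replication 14 fell (31.1%) and 1 rose (2.22%) in both knockdowns, and of 40 mitotic genes 11 fell (27.5%) and 4 rose (10%), against 17% and 9.9% of all tested genes. MCM6, of the replicative helicase, fell from 44.9, 37.2 and 28.8 CPM to between 12.8 and 19.4 CPM in TRIM28 knockdown and between 5.74 and 11.5 CPM in PARP1 knockdown. MCM10 and RRM1, a ribonucleotide reductase subunit, had pooled log2 fold changes of -1.70 and -1.32, and the clamp loader gene RFC2 rose (0.69). TPX2, a spindle factor, KIF4A, a chromosome kinesin, and BUB1, a checkpoint kinase, had values of -1.40, -1.40 and -1.38. PTTG1, which encodes securin, CDC20, an activator of the anaphase-promoting complex, and UBE2C, its conjugating enzyme, rose by 0.74, 0.54 and 0.53. With length and GC trends removed only PTTG1 of these risers kept its call in both, and CDC20 stood at -0.07. There 8 of the 45 and 7 of the 40 fell in both, where 9.64% of all tested genes did. The median pooled log2 fold change went from -0.29 to -0.28 for replication and from -0.47 to -0.19 for mitosis. Without control replicate 1 the falls were 6 and 6, without control replicate 2 they were 6 and 7, and without TRIM28 knockdown replicate 3 they were 8 and 7. The mitotic rises numbered 1 without control replicate 1, control replicate 2 or TRIM28 knockdown replicate 2.

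Metabolic and antioxidant lists held both directions, to be read against 9.9% higher and 17% lower over all tested genes. For HIF targets, which run high without VHL, 2 of 29 rose (6.9%) and 6 fell (20.7%) in both knockdowns. The glycolytic ENO1 rose from 7185, 7507 and 8672 CPM to between 10111 and 13258 CPM, whereas hexokinase HK2 fell (-1.29), as did the cyclin gene CCND1 (-1.21) and the prolyl hydroxylase gene P4HA1 (-1.35). Among 30 sterol and fatty acid genes 3 rose (10%) and 8 fell (26.7%), with the acetyl-CoA carboxylase gene ACACA at -1.22 and the desaturase gene SCD at -1.11. Of the 22 cholesterol genes in this list 3 rose and 3 fell, and of the 8 fatty acid genes 5 fell and 0 rose by edgeR. Their median pooled log2 fold changes were 0.11 and -0.84. Among 22 NRF2 targets 4 rose and 4 fell (18.2% each way), with NQO1 at 0.57 and TXNRD1, thioredoxin reductase, at -1.82. Among 35 lysosome and autophagy genes 6 rose (17.1%) and 7 fell (20%), with the autophagy receptor gene SQSTM1 at 0.55 and OPTN, another such receptor gene, at -0.98. Of 28 immediate early genes 2 fell, KLF6 (-1.31) and FOSL2 (-0.73), while edgeR called 0 rises, DESeq2 2 and limma 0, and 2 had unadjusted p below 0.05 throughout. The rises in the HIF, sterol, NRF2 and lysosome lists numbered 1, 0, 1 and 0 without control replicate 1 and 0, 0, 1 and 0 without control replicate 2. They numbered 4, 4, 8 and 9 without control replicate 3, 4, 4, 7 and 8 without PARP1 knockdown replicate 1, and 5, 4, 5 and 7 without its replicate 3. Omission of TRIM28 knockdown replicate 1 gave 1, 1, 1 and 2, of its replicate 2 gave 1, 0, 1 and 0, and of its replicate 3 gave 2, 3, 4 and 2. Omission of PARP1 knockdown replicate 2 gave 2, 3, 4 and 2. With length and GC trends removed the rises in the same lists were 4, 2, 2 and 11 and the falls 7, 4, 5 and 4. Of all tested genes 10.4% rose and 9.64% fell there.

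The direction of change went with exon length. The 13562 tested genes were cut into 10 length classes. In the shortest class, up to 1646 bases, the median pooled log2 fold change was 0.48, and 18.9% of genes rose and 0.884% fell in both knockdowns. In the longest, from 11752 bases, the median was -0.54, and 2.36% rose and 34% fell. Within control the median level of the longest class, against the mean over all libraries, was 0.53, 0.44 and 0.13 in the 3 libraries, and within PARP1 knockdown it was -0.30, -0.27 and -0.27. In TRIM28 knockdown it lay between -0.05 and -0.01. The genes that rose in both had a median length of 3026 bases and a GC content of 54.8%, and those that fell had 7329 bases and 44.1%. Of the protein-coding genes 10.5% rose and 19.4% fell, of long noncoding genes 3.81% and 1.42%, and of pseudogenes 10.5% and 2.95%. With the length trend of each library removed, 2228 of the 3641 genes remained changed in both in the same direction, and with length and GC trends removed 1780 did (48.9%), 607 that rose and 1173 that fell. In the second case 118 genes turned their pooled sign.

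**Figure D5:**
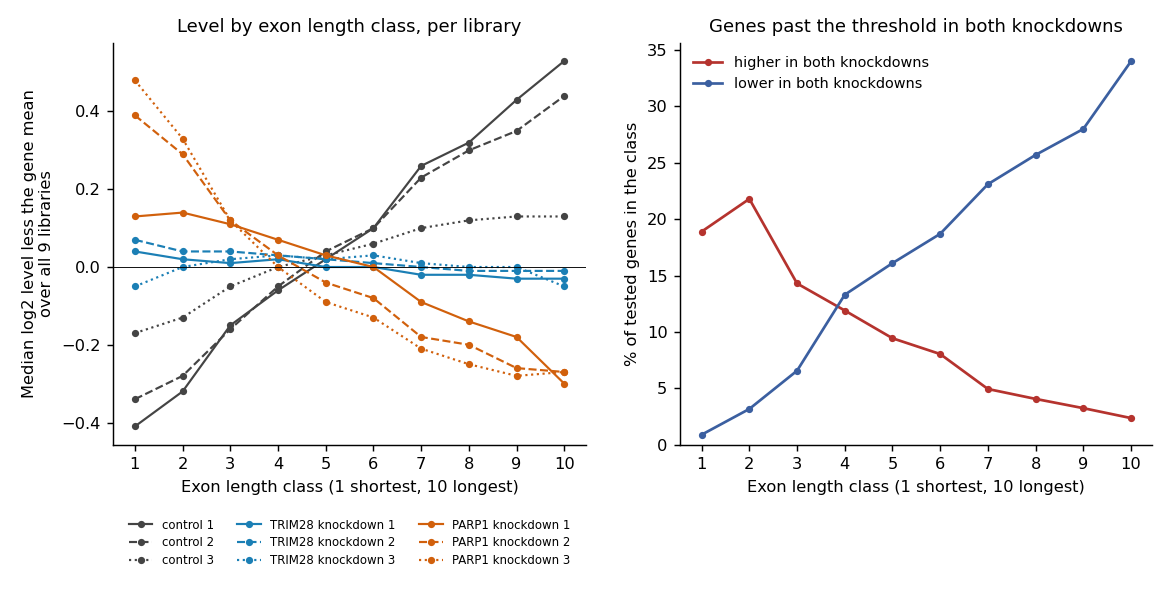
Exon length and the shared response. Left, the median log2 level of each length class in each library, less each gene's mean over the 9 libraries; right, the percent of tested genes in the class that passed in both knockdowns. Levels climbed with length in control and fell with it in PARP1 knockdown, and the share of falls went from 0.884% in the shortest class to 34% in the longest.

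For some genes the response was close in size in the knockdowns. The 95% interval of their difference lay within 0.5 of 0 (log2) for 368 of the genes changed in both, 272 higher and 96 lower. SRGN, which encodes the proteoglycan serglycin, stood at 20.3, 24.4 and 21.2 CPM in control, at 36.4, 41.2 and 31.9 CPM in TRIM28 knockdown and at 30.4, 37.1 and 41.4 CPM in PARP1 knockdown. CLEC4E, a C-type lectin that activates innate cells, stood at 61.7, 68.2 and 64.8 CPM in control and between 94.5 and 117 CPM in the knockdowns, with log2 fold changes of 0.64 ± 0.13 and 0.72 ± 0.13 (SE). UBE2L6, the conjugating enzyme for ISG15, stood at 59.5, 62.7 and 67.3 CPM in control and between 92.8 and 116 CPM in the knockdowns, but its pooled value of 0.69 became 0.12 with length and GC trends removed. PSRC1 and MAD2L1BP, both of the mitotic spindle or its checkpoint, had pooled values of 0.74 and 0.70. FBN1, fibrillin, fell from 38.7, 36.3 and 22 CPM to between 10.4 and 12 CPM and between 9.01 and 12.7 CPM. LYN, a SRC-family kinase, BCL9, a coactivator of beta-catenin, UBAP2 and CRYZ had pooled values from -1.36 to -1.16.

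The remaining named rises rested on weaker ground. Of the 161 genes named by the rules, 44 overlap another tested gene, and for 34 the overlap is antisense alone. U2AF1, a splicing factor subunit, stood at 16.2, 14 and 6.5 CPM in control and between 23.1 and 37.4 CPM in the knockdowns, but a second, almost identical gene in GRCh38 makes its counts uncertain. EEF1G stood between 1.11 and 1.8 CPM in control and shares its strand and part of its span with another tested gene, and its call in both was lost without control replicate 2 or TRIM28 knockdown replicate 2. The pseudogenes RPL7AP30 and FAM207BP, and SLC30A6-DT, a divergent transcript, lay below 4 CPM in all libraries. Their calls in both were lost without any of 5, 5 and 6 single libraries and with length and GC trends removed.

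Markers of the cell line were present in every library. All 14 renal carcinoma cell markers were tested, and they summed to between 7663 and 8134 CPM in control, between 8212 and 8698 CPM in TRIM28 knockdown and between 6331 and 8236 CPM in PARP1 knockdown. KRT8, KRT18 and NNMT rose in both (0.62, 0.75 and 0.82) and 6 fell, with CDH6 at -1.45 and CDH2 at -1.41. Of 20 markers of other cell types 5 passed the filter, and 0 changed in both by edgeR, at an unadjusted p, by DESeq2 or by limma. PTPRC, CD3E, NPHS1 and AQP2 were at 0 in all libraries. Leukocyte markers summed to at most 2.37 CPM and endothelial ones to at most 4.78 CPM, while fibroblast markers summed to between 4.01 and 5.13 CPM in control, between 2.93 and 3.35 CPM in TRIM28 knockdown and between 1.35 and 3.96 CPM in PARP1 knockdown.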

How the data were processed

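Polyadenylated RNA of 3 control, 3 TRIM28 knockdown and 3 PARP1 knockdown samples of 786-O cells was sequenced. Per the submitters' processing notes, the build was GRCh38 and the tools named are STAR 2.7.9a and Trim Galore 0.6.6, FastQC 0.11.9, R 4.0.3 with DESeq2 1.30.0, and featureCounts 2.0.1. Their order, the annotation release and the strand setting are not given here. The authors deposited raw counts per gene and FPKM values, and the exon length of each gene.

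The counts were fitted in edgeR 4.0.16 (quasi-likelihood test, TMM factors, filterByExpr) with 3 groups, which left 13562 of 61806 genes, with p-values adjusted over all of them by the Benjamini-Hochberg method at 0.05. The pooled contrast is the mean of the knockdowns less control. Levels are TMM-scaled CPM and changes are log2 fold changes computed from the deposited counts. No pair of libraries agreed within sampling noise. The script was tested on simulated data. Alternatives were DESeq2 1.42.0, limma 3.58.1 on log2(FPKM + 1), other scalings and filters, a replicate block, removal of each library's lowess trends (span 0.3) with exon length and GC content, and leaving out each library.

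Named genes were the targets, the 12 rises and 12 falls with the largest smaller-of-both change among genes past the threshold in both knockdowns, the 5 near-equal genes per direction with the largest pooled change (all with a mean FPKM of at least 1 and the 6 knockdown libraries on 1 side of the controls), up to 4 opposite genes per direction, and up to 3 members per direction of each list by pooled adjusted p. The members, lists and rules were chosen with earlier results of these data known. The ribosomal DNA region was widened, and the lists' length medians and counts at unadjusted p were added, after the values were seen. Sequences are from RefSeq, GRCh38.p14. Some genes that the rules name are not reported here.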

Additional observations from a re-analysis of the deposited data

Results flagged for a closer look

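The 8 genes below passed in opposite directions in the knockdowns, so their pooled values average changes of opposite sign. Each value is the TRIM28 minus PARP1 knockdown log2 difference with its 95% interval, and each difference passed in edgeR's test of the 2 knockdowns. That the knockdowns lie on opposite sides of control depends on the scaling: all 8 passed both ways with TMM factors, 1 (TSPAN4) with library totals, 6 with the trend with length taken out, and 3 (CFL1, LIMK1 and TSPAN4) with those with length and GC taken out. CFL1, which encodes the actin-severing protein cofilin, stood at 1338, 1390 and 1674 CPM in control, at 1945, 2001 and 2061 CPM in TRIM28 knockdown and at 538, 490 and 556 CPM in PARP1 knockdown, a difference of 1.92 (1.65 to 2.19). LIMK1, the kinase that inactivates cofilin, stood at 181, 191 and 213, at 84, 104 and 116, and at 309, 253 and 289 CPM, a difference of -1.49 (-1.78 to -1.20). ARPC1A, a subunit of the actin-branching Arp2/3 complex, differed by 0.97 (0.70 to 1.23), and RHOB, a small GTPase of the actin skeleton, by 0.77 (0.49 to 1.04). MVD, an enzyme of the mevalonate pathway, differed by 1.15 (0.84 to 1.46). TSPAN4, a tetraspanin, stood at 61.1, 59.3 and 75.4 CPM in control, between 40.9 and 43.3 CPM in TRIM28 knockdown and between 118 and 176 CPM in PARP1 knockdown, a difference of -1.77 (-2.08 to -1.46). CCDC74A differed by -1.58 (-2.05 to -1.11). TRIM28, the target of 1 knockdown, differed by -3.04.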

How the results depend on the processing

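The count of genes changed in both knockdowns, 3641, ranged from 1501 to 4730 when 1 library was left out, and was 2295 by limma on log2(FPKM + 0.1), 2633 with a pseudocount of 1 and 3986 by DESeq2. Rises were 36.9% of these genes, against 13.3% with library totals, 19.2% and 20.7% by limma with pseudocounts of 1 and 0.1, 48.8% after the trend with length was taken out and 51.8% after those with length and GC were. In the pooled contrast they were 44.9%, against 24% with library totals and 30.5% and 30.8% by limma. Of 3196 values of 153 named genes under alternatives, which are pooled changes (for opposite genes the difference between the knockdowns), 3156 kept their direction and side of the threshold, 36 lost the threshold and 4 changed sign with length and GC trends removed, BAX (-0.01), PMVK (-0.01), CDC20 (-0.07) and XRCC1 (-0.14). The cause was not tested. Most of these genes were named for large changes or small pooled adjusted p in these same data, so their stability follows in part from that choice. Of all 3641 genes changed in both, 118 turned their pooled sign with both trends removed. The call in both knockdowns was less stable: of 151 named genes that had it, 45 lost it in at least 1 leave-out, 29 with library totals and 37 with length and GC trends removed. For the opposite genes the difference between the knockdowns was followed, a choice made after the signs of pooled values were seen to change. Leaving out 1 library, the knockdown minus control difference ran from 3.73 to 4.84 percentage points for the ribosomal protein share, from 4.88 to 6.11 for the 100 highest genes, from -1303 to -997 for genes with a count and from -0.264 to -0.199 for the length slope. With 1 control fewer, and so fewer arrangements, the exact adjusted p was 0.1 for each of these 4. It was 0.075 for each without TRIM28 knockdown replicate 2 or PARP1 knockdown replicate 1, and from 0.0625 to 0.075 without TRIM28 knockdown replicate 1. For genes with a count it was also 0.0625 without TRIM28 knockdown replicate 3 or PARP1 knockdown replicate 3, and 0.05 without PARP1 knockdown replicate 2. The remaining measures of these 4 stayed at 0.0417 in those omissions. The mitochondrial genome share, -0.0216 with all libraries, ran from -0.103 to 0.0532, with 0.0532 without control replicate 1 and 0.0125 without PARP1 knockdown replicate 1. Same-numbered libraries of control and TRIM28 knockdown had correlated deviations of 0.141, 0.011 and 0.106, so the numbers were not taken as pairs, and not every library correlated best with its own number. With a replicate block 7474 genes passed in the pooled contrast and 3942 in both knockdowns. Low genes such as IFNB1 and RTP4 are limited by their counts.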
